A study of Mus musculus with 23 samples.

Results

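The 8 genes described here make, conjugate or carry bile acids: Cyp7a1, Cyp8b1, Cyp27a1, Cyp39a1, Baat, Slc27a5, Slc10a1 and Abcb11. They were chosen by symbol, with 1 feature of the array for each, out of 18688 features with a listed gene, and all 8 were measured on all 23 arrays. Livers were taken from female C57BL/6 mice that had inhaled carbon black (CB, Printex 90; 8 mice), diesel exhaust particles (DEP, standard reference material of NIST; 7 mice) or filtered air (8 mice). Particles were given at 20 mg/m3 for 90 min on 4 consecutive days. Per the labels the mice were 12 to 13 weeks old and the livers were taken 90 min after exposure, whereas the methods give a slightly younger age and a shorter interval. RNA of a piece of whole liver from 1 mouse, labelled with Cy5, was hybridised to each array against a universal mouse reference RNA in the Cy3 channel, with no dye swap. Values below are log2 ratios of liver to reference after loess within each array. A fold change is the difference of group means on this scale.

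Bile acids are made from cholesterol in hepatocytes and are the main route by which cholesterol leaves the body. In the classic pathway Cyp7a1 adds the first hydroxyl group and sets the pace, and Cyp8b1 directs the product towards cholic acid. In the alternative pathway Cyp27a1 oxidises the side chain, and Cyp39a1 acts on an oxysterol of brain origin. Slc27a5 activates the acids with coenzyme A, Baat joins them to taurine or glycine, Slc10a1 takes them up from portal blood and Abcb11 pumps them into bile. Bile acids in turn act on the nuclear receptor Nr1h4 and on the hormone Fgf15 of the gut, which lower Cyp7a1.

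Promoters are shown for Cyp27a1 and Abcb11, whose log2 ratios had the smallest p-values among the 8 genes, and for Cyp8b1, which varied with Cyp7a1 from mouse to mouse. Each is the 120 bases before the start of the gene in RefSeq's GRCm38.p6, 5′ to 3′ on the strand of the gene. Cyp27a1 lies on the plus strand (chr1:74713415-74713534), Abcb11 on the minus strand (chr2:69342617-69342736) and Cyp8b1 on the minus strand (chr9:121916306-121916425). Capitals mark matches to the letters AAAGTCC (part of the Hnf4a motif), AAGGTCA (bound by Nr5a2), AGGTCA (a site for nuclear receptors, which lies within AAGGTCA) and TATAAA, searched on both strands.
Cyp27a1: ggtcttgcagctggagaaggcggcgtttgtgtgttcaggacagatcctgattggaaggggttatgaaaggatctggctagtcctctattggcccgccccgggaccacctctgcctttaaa
Abcb11: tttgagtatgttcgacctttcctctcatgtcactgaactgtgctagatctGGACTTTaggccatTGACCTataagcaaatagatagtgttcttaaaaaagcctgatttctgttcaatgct
Cyp8b1: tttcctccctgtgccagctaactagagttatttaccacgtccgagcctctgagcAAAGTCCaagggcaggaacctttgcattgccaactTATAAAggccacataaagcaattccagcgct
Cyp8b1 had AAAGTCC starting 66 bases before the start and TATAAA 31 bases before it, and Abcb11 had AAAGTCC at 70 and AGGTCA at 56 bases, both on the other strand. Cyp27a1 had no match to these letters in its window. Among all 32851 promoters in the table, windows of 120 bases held AAAGTCC in 1.71%, AAGGTCA in 1.81%, AGGTCA in 6.91% and TATAAA in 6.34%. A match is a description of the letters and not a binding site. The table held promoters of 4 of the 8 genes, Slc10a1 being the other, and those of Cyp7a1, Cyp39a1, Baat and Slc27a5 are not shown.

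The tissue was checked against its markers. The Cy5 signals of 5 of the 6 hepatocyte markers summed to 590 to 906 times the array median in the CB group, 512 to 997 times in the DEP group and 587 to 842 times in the air group. Of these 5, Alb was saturated on 23, Apoa1 on 20 and Tat and Cps1 on 8 each of the 23 arrays, so that the sums are capped and do not compare hepatocyte content between groups. The 5 measured of 6 markers of cholangiocytes and gallbladder summed to 5.94 to 11.2, 6.39 to 14.1 and 5.25 to 9.38 times the array median in the CB, DEP and air groups. No background was subtracted from these signals. Of the 5, Sox9 was flagged absent on 11 and Cftr on 8 of the 23 arrays, and only 1 was never flagged absent. Over 38 measured markers of 11 cell types, 0 passed the adjusted threshold, and 0 after CB and 2 after DEP (Alb and Lep) had an unadjusted p under 0.05. Of all features, 5.94% after CB and 4.82% after DEP were at this level. With its liver signal at the limit of the scanner on all 23 arrays, Alb carries no difference in liver signal. Per array, 86 to 326 Cy5 spots in the CB group, 73 to 468 in the DEP group and 72 to 301 in the air group stood at the highest signal of the scanner, and 25.2% to 44.5%, 23.5% to 42.0% and 17.3% to 46.6% of all features were flagged absent. Exposures ran in 3 rounds: the first had 1 CB, 1 DEP and 2 air mice, the second had 6 CB, 2 DEP and 4 air mice and the last had 1 CB, 4 DEP and 2 air mice.

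None of the 8 genes passed the adjusted threshold of 0.05 after CB or after DEP in limma, as was true of all 18688 features (0%). At an unadjusted p under 0.05, Cyp27a1 and Abcb11 had lower ratios after CB, 2 of the 8 genes against 3.39% of all features that were lower at this level (5.94% in either direction). The same pair was lower after DEP, against 2.53% of all features that were lower (4.82% in either direction). Both comparisons share the air mice. When arrays were only centred on their median, without loess, which moved the median of all features to −0.11 after CB, Cyp27a1 (−0.74, adjusted p = 0.0207) and Abcb11 (−0.78, adjusted p = 0.0290) passed after CB in limma, and under the other alternatives they did not (adjusted p of 0.402 to 0.966 and of 0.364 to 0.966). Spots at the highest signal of the scanner occurred in these 2 genes and in Slc27a5 (21 of 23 arrays), and not in the other 5. Neither Slc27a5 (0.192 after CB and 0.637 after DEP) nor any of the other 5 had an unadjusted p under 0.05 in limma. In a piece of liver, fewer hepatocytes and less RNA per hepatocyte cannot be told apart.

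**Figure D1:**
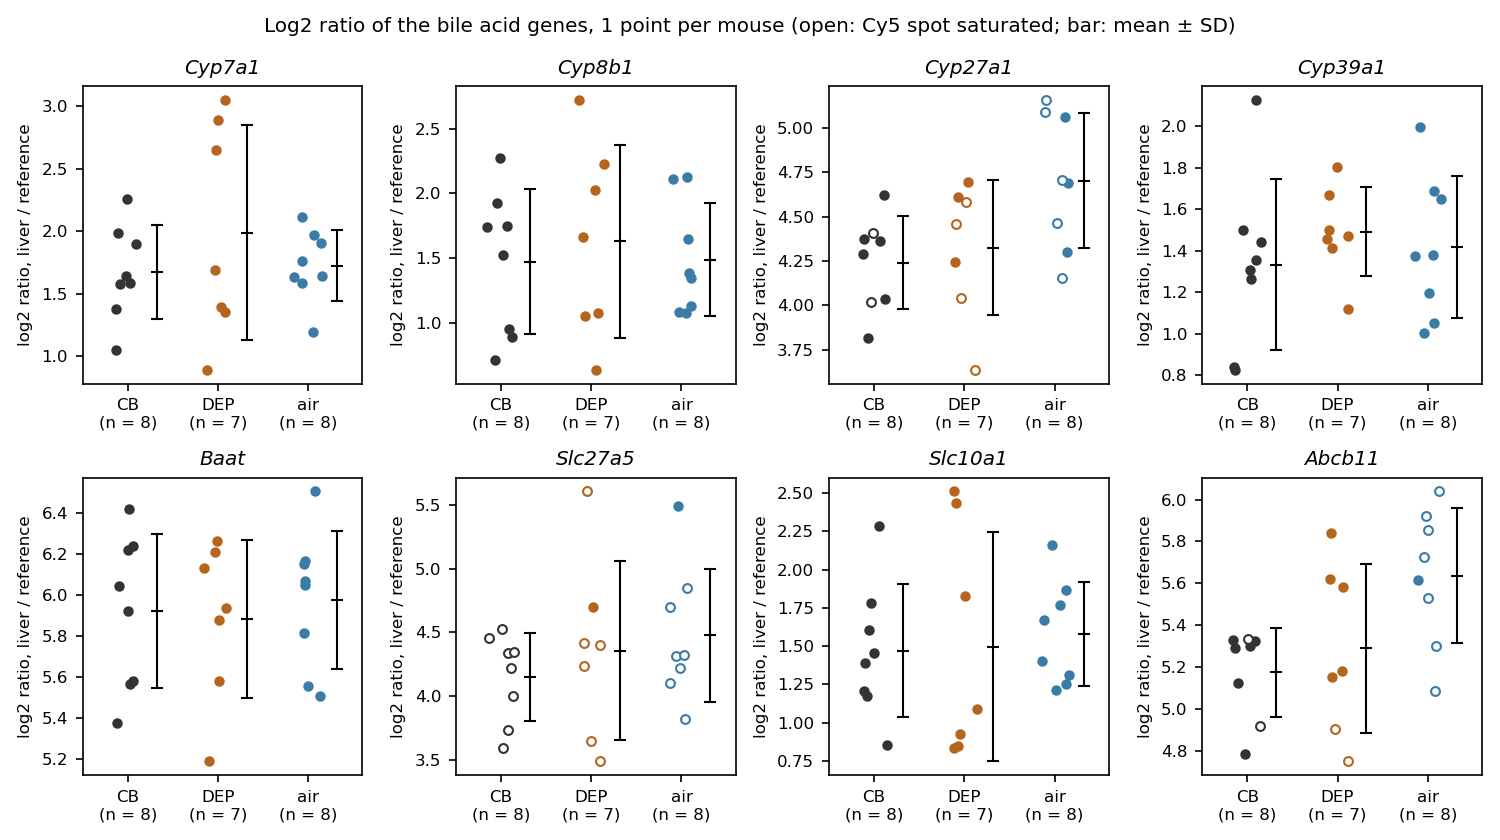
Log2 ratio of liver to reference for each of the 8 genes (vertical axis) in CB, DEP and air mice (horizontal axis), 1 point per mouse, with the mean and SD beside each group; open points are spots at the highest Cy5 signal of the scanner. The CB mice of Abcb11 lie between 4.79 and 5.33 and its air mice between 5.09 and 6.04, and the Cyp7a1 points of the DEP mice spread from 0.89 to 3.05.

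Cyp7a1 (NM_007824), the rate-limiting enzyme of the classic pathway, had log2 ratios of 1.05 at the lowest, 1.61 at the median and 2.26 at the highest in CB mice, 0.89, 1.69 and 3.05 in DEP mice and 1.19, 1.70 and 2.11 in air mice. The groups overlapped in part, and the DEP mice were the most spread. Of these, 3 (mice 51, 57 and 444, at 3.05, 2.89 and 2.65) lay above every mouse of the other groups. The mean was 1.67 ± 0.38 (SD, n = 8) after CB, 1.99 ± 0.86 (SD, n = 7) after DEP and 1.73 ± 0.28 (SD, n = 8) after air. By limma the log2 fold change was −0.05 after CB (standard error 0.25, adjusted p = 0.985) and 0.26 after DEP (standard error 0.26, adjusted p = 0.997). Its Cy5 signal was never flagged absent or saturated, while the reference signal was flagged absent on 14 of the 23 arrays. With the liver channel alone the differences were −0.02 after CB and 0.29 after DEP.

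Cyp8b1 (NM_010012), the sterol 12-alpha-hydroxylase that sets how much cholic acid is made, had a similar pattern. Its log2 ratios were 0.71, 1.64 and 2.27 (lowest, median and highest) in CB mice, 0.64, 1.67 and 2.72 in DEP mice and 1.07, 1.37 and 2.13 in air mice, so that the air mice lay within the range of both particle groups. The log2 fold change was −0.02 after CB (standard error 0.27, adjusted p = 0.995 from limma) and 0.14 after DEP (standard error 0.28, adjusted p = 0.997). The sign after CB was the opposite with normexp background correction (0.01), and that after DEP without DEP mouse 51 (−0.04). The reference signal was flagged absent on 18 of 23 arrays.

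Cyp27a1 (NM_024264), the mitochondrial sterol 27-hydroxylase of the alternative pathway, had log2 ratios of 3.82, 4.33 and 4.62 (lowest, median and highest) in CB mice, 3.64, 4.46 and 4.70 in DEP mice and 4.15, 4.70 and 5.16 in air mice. The groups overlapped, and 4 of the 8 air mice lay above every CB and DEP mouse. Its mean was 4.24 ± 0.26 (SD, n = 8) after CB, 4.32 ± 0.38 (SD, n = 7) after DEP and 4.70 ± 0.38 (SD, n = 8) after air. The log2 fold change was −0.46 after CB (standard error 0.16, unadjusted p = 0.00859, adjusted p = 0.720 from limma) and −0.38 after DEP (standard error 0.17, unadjusted p = 0.0330, adjusted p = 0.997). The liver signal was saturated on 2 of 8 CB, 4 of 7 DEP and 5 of 8 air arrays, and a saturated spot gives only a lower bound of its signal. With the liver channel alone the difference was −0.08 after CB (unadjusted p = 0.550) and −0.07 after DEP (unadjusted p = 0.625) in limma, both smaller than their standard errors. In the reference channel alone it was 0.55 after CB (unadjusted p = 0.00398, adjusted p = 1.00) and 0.39 after DEP (unadjusted p = 0.0405, adjusted p = 1.00), in RNA that was the same on every array. Because 5 of 8 air spots stood at the limit of the scanner, the liver differences of this gene are between capped signals. They are not set against those of the reference channel.

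Cyp39a1 (NM_018887), the oxysterol 7-alpha-hydroxylase, was never saturated and never flagged absent in either channel. Its log2 ratios were 0.82, 1.33 and 2.13 (lowest, median and highest) in CB mice, 1.12, 1.47 and 1.81 in DEP mice and 1.00, 1.38 and 1.997 in air mice, with the CB range the widest. The log2 fold change was −0.08 after CB (standard error 0.16, adjusted p = 0.960 from limma) and 0.07 after DEP (standard error 0.17, adjusted p = 0.997), and the sign after DEP was the opposite with median centring (−0.04).

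Slc27a5 (NM_009512), the bile acid coenzyme A ligase, had a liver signal at the highest signal of the scanner on 8 of 8 CB arrays, 6 of 7 DEP arrays and 7 of 8 air arrays, so that no fold change is given. The 2 arrays below that limit had signals of 64710 (DEP mouse 835435) and 56208 (air mouse 443) against a limit of 65535. Its reference signal had a median of 3167 in CB mice, 2426 in DEP mice and 2393 in air mice. In the reference channel alone the difference on the log2 scale was 0.60 after CB (standard error 0.20, unadjusted p = 0.00595, adjusted p = 1.00 from limma) and 0.20 after DEP (standard error 0.20, adjusted p = 1.00).

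Baat (NM_007519), which conjugates bile acids to taurine or glycine, had log2 ratios of 5.38, 5.98 and 6.42 (lowest, median and highest) in CB mice, 5.19, 5.94 and 6.26 in DEP mice and 5.51, 6.06 and 6.50 in air mice. The 3 ranges almost coincided. The log2 fold change was −0.06 after CB (standard error 0.17, adjusted p = 0.978 from limma) and −0.09 after DEP (standard error 0.18, adjusted p = 0.997), the second with the opposite sign in the liver channel alone (0.18). The 95% confidence interval was −0.41 to 0.30 after CB and −0.46 to 0.27 after DEP.

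Slc10a1 (NM_011387), the sodium-dependent carrier that takes conjugated bile acids up from portal blood, had log2 ratios of 0.85, 1.42 and 2.28 (lowest, median and highest) in CB mice, 0.84, 1.09 and 2.51 in DEP mice and 1.22, 1.54 and 2.16 in air mice. Of the DEP mice, 51 and 57 were highest at 2.51 and 2.43, mouse 444 was at 1.83 and the others lay from 0.84 to 1.09. The log2 fold change was −0.11 after CB (standard error 0.24, adjusted p = 0.966 from limma) and −0.09 after DEP (standard error 0.25, adjusted p = 0.997). The liver signal was never flagged absent, but the reference signal was on 22 of 23 arrays, and in the liver channel alone the differences were −0.11 after CB and −0.05 after DEP.

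Abcb11 (NM_021022), the bile salt export pump of the canalicular membrane, had log2 ratios of 4.79, 5.29 and 5.33 (lowest, median and highest) in CB mice, 4.75, 5.18 and 5.84 in DEP mice and 5.09, 5.67 and 6.04 in air mice. Of the 8 air mice, 6 lay above every CB mouse, and the DEP mice spanned nearly the whole range of both. The mean was 5.18 ± 0.21 (SD, n = 8) after CB, 5.29 ± 0.40 (SD, n = 7) after DEP and 5.64 ± 0.32 (SD, n = 8) after air. The log2 fold change was −0.46 after CB (standard error 0.15, unadjusted p = 0.00555, adjusted p = 0.698 from limma) and −0.35 after DEP (standard error 0.16, unadjusted p = 0.0373, adjusted p = 0.997), and for both particle groups together −0.40 (unadjusted p = 0.00560, adjusted p = 0.718, at a level that 6.04% of all features reached in either direction).

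The liver signal of Abcb11 was saturated on 2 of 8 CB, 2 of 7 DEP and 7 of 8 air arrays. The liver signals were 24458, 44591 and 65535 (lowest, median and highest) in CB mice, 34345, 58879 and 65535 in DEP mice and 30385, 65535 and 65535 in air mice, with a single air mouse below the limit of the scanner. In the liver channel alone, relative to the array median, the difference was −0.37 after CB (standard error 0.18, unadjusted p = 0.0495, adjusted p = 0.820 from limma) and −0.16 after DEP (standard error 0.18, unadjusted p = 0.381, adjusted p = 1.00). In the reference channel alone it was 0.31 after CB (standard error 0.18) and 0.26 after DEP (standard error 0.18). Neither reference difference had an unadjusted p under 0.05 (0.0963 and 0.173 in limma). Because 7 of 8 air spots stood at the limit of the scanner, the liver differences are between capped signals and are not set against those of the reference channel.

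**Figure D2:**
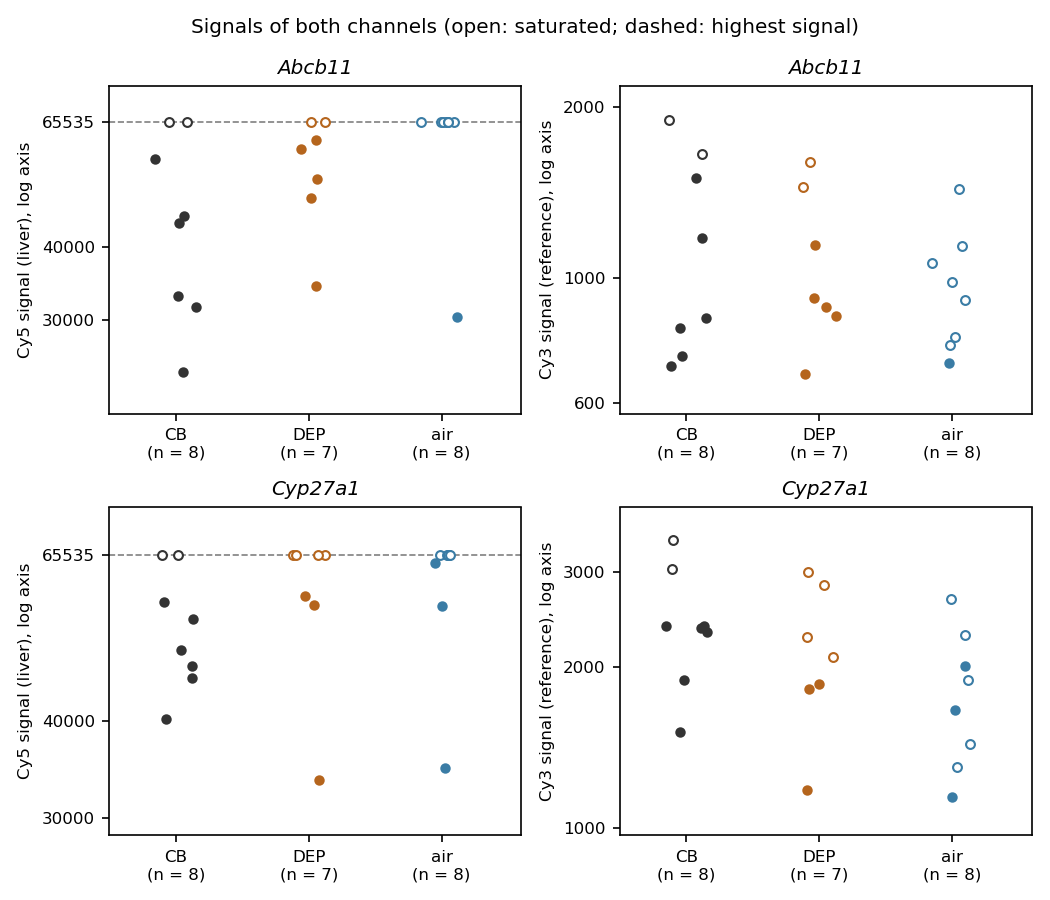
Cy5 signal of the liver RNA (left, log axis) and Cy3 signal of the reference RNA (right, log axis) for Abcb11 (top) and Cyp27a1 (bottom) in CB, DEP and air mice, 1 point per mouse; open points and the dashed line mark the highest Cy5 signal of the scanner, 65535. Of the Abcb11 spots, 2 of 8 in CB mice, 2 of 7 in DEP mice and 7 of 8 in air mice sit on that line.

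Lower ratios were common among features with a saturated liver spot, a set picked by the same Cy5 signals that enter the ratios. Of the 456 features with at least 1 saturated Cy5 spot, 83.1% had a log2 fold change below 0 after CB, against 49.8% of all features, and 89.9% did so after DEP, against 50.0%. Their median log2 fold change was −0.18 after CB and −0.19 after DEP, and their reference signal differed by a median of 0.25 and 0.17 on the log2 scale in the CB and DEP comparisons. Cyp27a1 and Abcb11 belong to these features, and the part of saturation in their ratios was not tested.

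**Figure D3:**
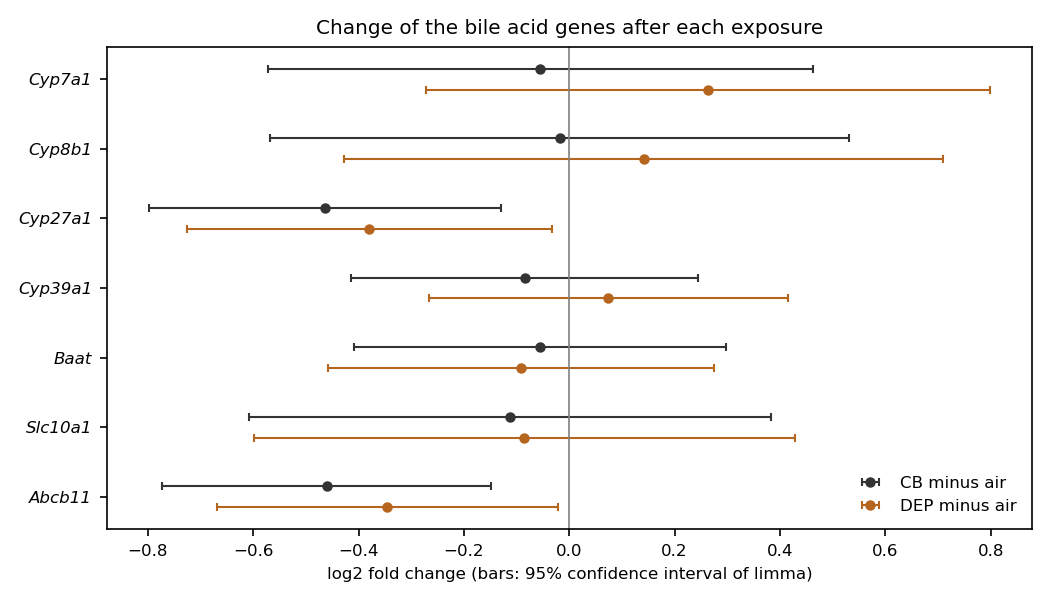
Log2 fold change of 7 of the genes (horizontal axis) after CB and after DEP, each against air, with the 95% confidence interval from limma; Slc27a5 is left out because its liver signal was saturated on 21 of 23 arrays. The intervals of Cyp27a1 (−0.80 to −0.13 after CB, −0.73 to −0.03 after DEP) and Abcb11 (−0.77 to −0.15 after CB, −0.67 to −0.02 after DEP) lie below 0 before adjustment, and those of the other 5 genes include it.

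Set against each other, CB and DEP differed in none of the 7 genes at an unadjusted p under 0.05 (3.44% of all features). The differences, CB minus DEP, were −0.32 for Cyp7a1 (95% confidence interval −0.85 to 0.22), −0.16 for Cyp8b1 (−0.73 to 0.41), −0.08 for Cyp27a1 (−0.43 to 0.26) and −0.16 for Cyp39a1 (−0.50 to 0.18). For the genes of conjugation and transport they were 0.04 for Baat (−0.33 to 0.40), −0.03 for Slc10a1 (−0.54 to 0.49) and −0.11 for Abcb11 (−0.44 to 0.21). The intervals leave room for differences of either sign. Of 38 measured markers of cell types, 2 were lower after CB than after DEP at an unadjusted p under 0.05, and 0 passed after adjustment. They were Cela2a (−0.73) and Cela1 (−0.27) of pancreatic acinar cells, Cela1 with its liver signal flagged absent on 8 arrays. The other acinar markers measured were not at this level. They were Cpa1 (−0.09, unadjusted p = 0.772 in limma) and Ctrb1 (−0.01, unadjusted p = 0.905).

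For Cyp27a1 and Abcb11 the fold changes were also computed within rounds of exposure. Within the second round (6 CB, 2 DEP and 4 air mice) the log2 fold change of Abcb11 was −0.28 after CB (unadjusted p = 0.127) and 0.02 after DEP (unadjusted p = 0.941), and that of Cyp27a1 was −0.30 (unadjusted p = 0.130) and 0.06 (unadjusted p = 0.813), in limma. Within the last round (1 CB, 4 DEP and 2 air mice) they were −1.20 and −0.89 for Abcb11 and −1.07 and −0.80 for Cyp27a1, the CB value resting on a single mouse. With the round as a block, the CB values were −0.46 for Abcb11 and −0.48 for Cyp27a1 and the DEP values −0.31 and −0.30, the DEP values no longer under an unadjusted p of 0.05 (0.0812 and 0.0964 in limma). The difference between the last and the second round, by an interaction term in limma, was −0.92 for Abcb11 and −0.78 for Cyp27a1 after CB. As the last round held 1 CB mouse, no test is given for these values. After DEP the difference was −0.90 for Abcb11 (unadjusted p = 0.0172, adjusted p = 0.969 in limma). For Cyp27a1 it was −0.85 (unadjusted p = 0.0311, adjusted p = 0.969). Of all features, 0 passed after adjustment for this DEP term. The first round, with 1 CB, 1 DEP and 2 air mice, was not fitted alone.

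Levels were also compared between rounds, and none of the 8 genes passed after adjustment. The 4 mice of the first round had Cyp7a1 log2 ratios of 0.89 to 1.63 and the other 19 of 1.36 to 3.05, while Cyp39a1 was 1.37 to 2.13 in the first round and 0.82 to 1.81 in the other rounds. The F test of the round in limma, with the groups in the model, gave an unadjusted p of 0.0260 for Cyp7a1 (adjusted p = 0.766) and 0.0161 for Cyp39a1 (adjusted p = 0.741). At an unadjusted p under 0.05 were 6.28% of all features, and 0 of 18688 passed after adjustment.

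Some of the 8 genes varied together from mouse to mouse. Over the 23 mice, Cyp7a1 and Cyp8b1 had a Pearson correlation of 0.651 (permutation p = 0.00066, adjusted p = 0.0033 over 10 relations among the 5 genes never saturated) and a Spearman correlation of 0.643 (permutation p = 0.00129). Without the 2 mice farthest from the median of Cyp7a1 the Pearson correlation was 0.596. Among the 12 mice of the second round it was 0.306, and among the 7 of the last 0.844. Baat and Slc10a1 had a Pearson correlation of 0.668 (permutation p = 0.00049, adjusted p = 0.0033) and a Spearman correlation of 0.740 (permutation p = 0.00016), with 0.621 for Pearson without the 2 farthest mice, 0.659 in the second round and 0.813 in the last. Cyp7a1 and Slc10a1 reached 0.540 (adjusted permutation p = 0.0243), but 0.213 without the 2 farthest mice, so that this relation rests on mice 51 and 57. Of the 10 relations, 5 had an adjusted permutation p under 0.05 by Pearson, the others being Cyp8b1 with Slc10a1 (0.526) and Cyp39a1 with Baat (0.474), which were 0.335 and 0.290 without the 2 farthest mice. By Spearman, the adjusted permutation p was above 0.05 for Cyp7a1 with Slc10a1 (0.128), Cyp8b1 with Slc10a1 (0.091) and Cyp39a1 with Baat (0.077).

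Part of the same spread followed the number of saturated spots of the arrays. The log2 number of saturated Cy5 spots of an array had a Pearson correlation of 0.821 with Slc10a1 (0.737 without the 2 farthest arrays) and 0.743 with Baat (0.739). It was 0.553 with Cyp8b1 (0.434), 0.419 with Cyp39a1 (0.460) and 0.400 with Cyp7a1 (0.025). In the second and last rounds it was 0.756 and 0.923 for Slc10a1 and 0.780 and 0.950 for Baat. The permutation p adjusted over the 10 relations with array measures was 0.0001 for Slc10a1 and 0.00045 for Baat, the first the smallest that the permutations can give. With the log2 median Cy5 signal of the array the Pearson correlation was lower. It was 0.454 for Baat, 0.424 for Slc10a1, 0.330 for Cyp8b1, 0.255 for Cyp39a1 and 0.052 for Cyp7a1. The smallest adjusted permutation p of these was 0.0743 by Pearson and 0.0467 by Spearman, both for Baat. The arrays of DEP mice 51 and 57 had 468 and 327 saturated spots, the first the most of all arrays and the second the second most. The part of these array measures in the correlations between genes was not tested.

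**Figure D4:**
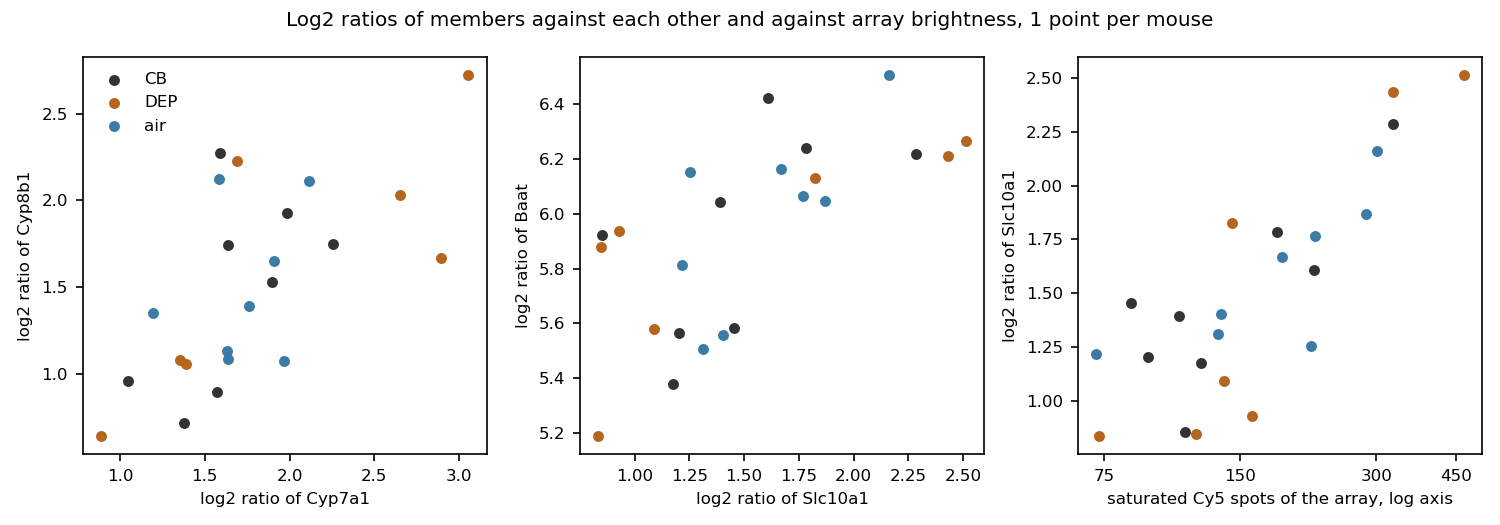
Log2 ratio of Cyp8b1 against Cyp7a1 (left), Baat against Slc10a1 (middle) and Slc10a1 against the number of saturated Cy5 spots of the array (right, log axis), 1 point per mouse for the CB, DEP and air groups. The points rise together in all 3 panels, with Pearson correlations of 0.651, 0.668 and, on the log2 number of spots, 0.821.

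The genes whose log2 ratio was most like that of a member over the 23 arrays were sought among 7011 features neither saturated nor absent on any array. For Cyp7a1 they were Havcr1 (Pearson correlation 0.827), Snx14 (0.821) and Gramd1c (0.798), and for Cyp8b1 Sult1e1 (0.773), Col4a1 (0.749) and Mrpl13 (0.731). Baat was most like Otc (0.842), Nxpe2 (0.841) and Myo5b (0.839), Slc10a1 most like Acbd5 (0.899), Robo4 (0.898) and Klhl13 (0.894), and Cyp39a1 most like Kat8 (0.798), Man2a1 (0.779) and Nrbp2 (0.761). These are descriptions of the highest among many values.

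The other genes of the pathway, listed from textbook knowledge, gave no call either. Of 16 measured of 17 other enzymes of synthesis and conjugation, 0 passed the adjusted threshold in either comparison. After CB, Acox2, the peroxisomal oxidase that shortens the side chain, gave a log2 fold change of −0.41 (standard error 0.18, unadjusted p = 0.0322, adjusted p = 0.838 from limma). After DEP, Cyp46a1, a cholesterol hydroxylase of the brain, had −0.23 (unadjusted p = 0.0360, adjusted p = 0.997), with its liver signal flagged absent on 13 of 23 arrays. The other genes named by the smallest p were Cyp2c70, which makes muricholic acids in mice (−0.24 after CB), and Hsd17b4, a peroxisomal enzyme of side chain oxidation (−0.16 after DEP), and Acox2 after DEP had −0.28. The liver signal of Cyp2c70 was saturated on 12 of the 23 arrays.

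Of 15 measured of 18 other carriers of bile acids, bile lipids and sterols, 0 had an unadjusted p under 0.05 after CB or DEP. The smallest p-values belonged to Abcg8 (−0.29 after CB), a subunit of the sterol exporter, to Abcc3 (0.15 after CB), which exports organic anions back to blood, and to Slc10a2 (−0.45 after CB and −0.56 after DEP), the bile acid carrier known from the ileum and bile ducts. Abcb1a (−0.32) and Abcg5 (−0.30) completed the list after DEP, Abcb1a being flagged absent on 12 of 23 arrays. Abcc2, Abcb4 and Slco1b2, which carry conjugates and phospholipids into bile and organic anions into the cell, were among those past no threshold. The liver signal of Slco1b2 was saturated on 19 of the 23 arrays, so that a change in it could not be read.

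Of 17 measured of 19 regulators, 0 passed the adjusted threshold. Nr1h3, the oxysterol receptor that raises Cyp7a1 in rodents, showed a log2 fold change of −0.34 after CB (standard error 0.15, unadjusted p = 0.0391, adjusted p = 0.838 from limma) and −0.06 after DEP. Mafg, a repressor of bile acid synthesis genes, had 0.21 after CB and 0.35 after DEP (standard error 0.15, unadjusted p = 0.0247, adjusted p = 0.997). Fgf15, made in the gut, had 0.31 after CB and 0.38 after DEP (unadjusted p = 0.0266 and 0.0101), but its liver signal was flagged absent on 20 of 23 arrays. Nr5a2, which activates Cyp7a1 and Cyp8b1, had −0.37 after CB and Vdr −0.17 after DEP.

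The median log2 fold change after CB was −0.08 over the 7 members with a fold change, −0.08 over the 15 other enzymes that were not saturated on nearly all arrays, −0.08 over 14 other carriers and −0.06 over 17 regulators, against 0.00064 over all features. After DEP these medians were −0.09, −0.11, −0.07 and 0.03. These 7 members were each below 0 after CB and 4 of 7 after DEP, against 49.8% and 50.0% of all features.

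**Figure D5:**
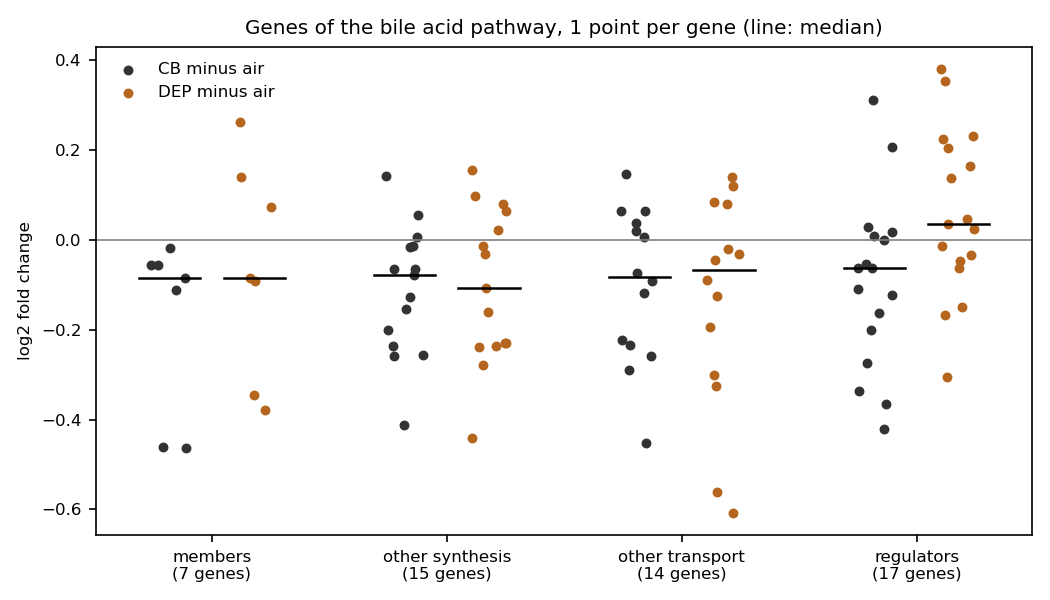
Log2 fold change (vertical axis) of the genes of each list after CB and after DEP, each against air, 1 point per gene, with the median as a line; genes saturated on 19 or more of the 23 arrays are left out. The medians of the members are −0.08 after CB and −0.09 after DEP, those of the regulators −0.06 and 0.03, and 0 genes passed the adjusted threshold.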

How the data were processed

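Livers of 23 mice were each hybridised to a 2-colour oligonucleotide array. The authors scanned the arrays, quantified the spots and deposited the intensity of every spot, per channel, with no background subtracted, flags of absent spots, and log2 ratios made by the authors by lowess in R 2.4.1. Here log2 ratios were computed from the deposited intensities by loess within each array over 18688 of 22575 features with a listed gene (3887 have none), and the 3 groups entered a single fit of limma 3.58.1 in R 4.3.3. P-values were adjusted over all 18688 features by the Benjamini-Hochberg method, with a threshold of 0.05. The methods' MAANOVA test was replaced by limma. A spot was taken as saturated at 65535. Correlations were tested by 100000 permutations. The members and lists were chosen with earlier results of these data known. Of other pathway genes, those with the 3 smallest p-values per list and exposure were named, and a gene with several features was represented by its brightest. The number of arrays limits the precision. The test was checked on simulated data. Replicates are mice. Their exposure rounds and days and their sets of arrays were read from the labels. Alternatives were the deposited ratios, median centring, loess over all features, Cy5 alone, normexp (offset 50), a filter on dim features (15036 kept), round, array set or exposure day as a block, the second or last round alone, array weights, only the groups compared, leaving out each mouse and, added after seeing the data, the number of saturated spots as a covariate. The deposited series table was compared with the per-array tables and held the same log2 ratios. Promoters are from RefSeq's GRCm38.p6, and the build behind the array annotation is not given in the sources used here.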

Additional observations from a re-analysis of the deposited data

Results flagged for a closer look

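Cyp27a1 was singled out because its DEP mice lay on opposite sides of the air mean in 2 rounds of exposure. In the second round both DEP mice lay above the mean of the air mice, with a log2 fold change of 0.0596 (unadjusted p = 0.813 in limma, 2 DEP and 4 air mice), and in the last round all 4 DEP mice lay below it, with −0.80 (4 DEP and 2 air mice). In the second round DEP mouse 56, at 4.583, was barely above the air mean of 4.581. Its liver spot was saturated, as were those of air mice 49, 50 and 442 in that round. The difference between the rounds, last minus second, was −0.85 by an interaction term in limma (unadjusted p = 0.0311, adjusted p = 0.969), so that it did not pass. For Abcb11, whose 2 DEP mice of the second round lay on either side of the air mean, that difference was −0.90 (unadjusted p = 0.0172, adjusted p = 0.969), which did not pass either. Among 21 sets of values of a gene in a group, no mouse stood far from the others by Dixon's ratio.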

How the results depend on the processing

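The number of features past the adjusted threshold after CB was 0, and it was 285 with median centring, 50 in the last round alone (1 CB mouse), 1 with array weights and 0 to 1 when each mouse was left out (1 without CB mouse 59 or air mouse 442). Between CB and DEP it was 0, and 100 in the last round alone (1 CB mouse). For both particle groups together it was 0, and 46 with median centring, 1 with loess over all features, 1 with the filter on dim features and 0 to 2 when each mouse was left out (2 without air mouse 442). With median centring Cyp27a1 (−0.74) and Abcb11 (−0.78) passed after CB in limma, and for both particle groups together Cyp27a1 (−0.62) passed. The cause was not tested.

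Signs turned as follows. In the last round alone Cyp7a1 (0.28) and Cyp8b1 (0.69) after CB and Slc10a1 (0.39) after DEP turned, in the second round alone Cyp27a1 (0.0596) and Abcb11 (0.0175) after DEP. Normexp turned Cyp8b1 after CB (0.0089), median centring Cyp39a1 after DEP (−0.0386) and Cy5 alone Baat after DEP (0.18). The number of saturated spots as a covariate, added after seeing the data, turned Cyp7a1 (0.0406), Cyp8b1 (0.126), Baat (0.0658) and Slc10a1 (0.0786) after CB. Leaving out each mouse gave −0.139 to 0.0348 for Cyp7a1, −0.132 to 0.0905 for Cyp8b1 and −0.127 to 0.0219 for Baat after CB, and −0.0409 to 0.307 for Cyp8b1, −0.159 to 0.0243 for Baat and −0.255 to 0.025 for Slc10a1 after DEP. Abcb11 and Cyp27a1 kept their sign after CB under every alternative run (−0.54 to −0.40 for each when mice were left out).

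No paired analysis was possible because the groups share no mouse numbers. Among the 8 genes, saturation of the liver signal limits Slc27a5, Cyp27a1 and Abcb11.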
